A study of Mus musculus with 6 samples.

Results

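Serpins are a family of proteins that share one fold, and most of them inhibit serine proteases. An inhibitory serpin offers an exposed loop as bait, and the protease that cuts it is trapped in a covalent complex and taken out of action. Other members have lost this activity and act as hormone carriers, collagen chaperones or signalling proteins. In mice the family is divided into clades by letter. Clade A holds secreted inhibitors of plasma, clade B holds inhibitors that stay inside cells and are abundant in squamous epithelia such as epidermis, and clades C to I hold smaller groups with roles in coagulation, vessel growth, complement, collagen folding and the nervous system.

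The members were chosen by name: all probe sets, the units of an Affymetrix expression array, whose gene symbol begins with Serpin. There were 32 such probe sets, listing 28 of the 8949 genes named on the array, among 12422 probe sets that were not array controls. Of these, 28 were assigned to a single serpin gene, 23 genes in all, and 4 listed several near-identical serpins. Together they listed 28 of the 63 protein-coding serpin genes named in the RefSeq table, with 10 of 24 in clade A and 11 of 28 in clade B.

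The arrays measured total RNA of whole skin from 3 FVB samples, an albino inbred mouse strain, and 3 GC13 samples, a transgenic line that overexpresses Hoxc13, all at 5 days after birth. Hoxc13 is a homeobox gene known for its role in hair formation. The labels give neither the promoter that drives the transgene nor the genetic background of the line, and they leave unsaid whether each array is a mouse of its own. The p-values therefore reflect only how far the arrays of a line spread, a spread that may be technical. The comparison asks how skin that overexpresses Hoxc13 differs from skin of the FVB strain, and Hoxc13 itself, for which no probe set was listed, was not analysed here. Whole skin mixes epidermis, follicles, dermis, vessels, fat and muscle, so in these bulk samples fewer cells of a type and less RNA per cell cannot be told apart.

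The arrays were alike in total signal, with summed intensities between 1626361 and 1736141, and their number limits the precision. The 2 lines differed in RNA quality by the Gapdh control and less clearly by the beta-actin control. The 3' over 5' ratio of the Gapdh control, which is higher when messenger RNA is degraded from its 5' end, lay between 0.894 and 0.958 on the FVB arrays and was 2.22, 9.58 and 2.19 on GC13 replicates 1, 2 and 3 (exact two-sided permutation test on log2 ratios, p = 0.1, the smallest it allows). The same ratio of the beta-actin control was 1.36, 1.26 and 1.16 on FVB replicates 1, 2 and 3. On GC13 replicates 1, 2 and 3 it was 1.26, 3.80 and 1.43 (exact two-sided permutation test on log2 ratios, p = 0.2). By beta-actin, GC13 replicate 1 lay within the FVB range and replicate 3 just above it. Eif2s3y, a gene of the Y chromosome, read 69.4 to 98.9 in FVB, 143 on GC13 replicate 2 and 3.25 and 4.60 on GC13 replicates 1 and 3. Xist, a gene of the X chromosome, read 9.95 to 11.9 in FVB, 1.07 on GC13 replicate 2 and 9.15 and 12.6 on GC13 replicates 1 and 3. Xist therefore did not follow the line, and the labels give no sex. Line and RNA quality by the Gapdh control cannot be told apart in the comparison. The Y-linked signal followed the line only in part, because GC13 replicate 2 read above the FVB range. Without that array, line, Gapdh ratio and Y-linked signal all coincide, and a call in that fit cannot be assigned to any one of them. GC13 replicate 2 stands apart from the other 2 GC13 arrays in the 3' over 5' ratios, the Eif2s3y and Xist signals and the median intensity. Calls that change without it, and the members it moved most, are therefore given beside the result.

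The markers of skin were present: of the 9 keratinocyte markers with a probe set, 7 passed the filter on low values, as did 11 of 11 dermal fibroblast and 12 of 12 hair follicle markers. Marker levels moved with the line. Of the hair follicle markers 10 of 12 lay below 0, with a median log2 difference of -0.63 and 1 called lower. Of the fibroblast markers 11 of 11 lay above 0, with a median of 0.65 and 1 called higher. Melanocyte markers lay below 0 in 6 of 7 cases, with a median of -0.55. Of all probe sets tested, 57.3% lay above 0, with 0.419% called lower and 0.0859% called higher. The part of these marker shifts in the serpin values was not tested.

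Stretches of upstream sequence of 4 genes are shown first, because they belong to the serpin genes on which the results turn: Serpinb3a, Serpinb5 and Serpinb2, which lie in 1 cluster of 12 clade B genes on chromosome 1, and Serpinf1, the one with the most negative difference among the probe sets tested. Each is RefSeq sequence of the GRCm38.p6 build from 250 bases before to 50 bases after the annotated start, written 5′ to 3′ along the gene's strand, and capitals mark the TATA box letters TATAAA. The windows are chr1:107052254-107052553 on the minus strand for Serpinb3a, chr1:106860925-106861224 on the plus strand for Serpinb5, chr1:107511173-107511472 on the plus strand for Serpinb2 and chr11:75422574-75422873 on the minus strand for Serpinf1.
Serpinb3a: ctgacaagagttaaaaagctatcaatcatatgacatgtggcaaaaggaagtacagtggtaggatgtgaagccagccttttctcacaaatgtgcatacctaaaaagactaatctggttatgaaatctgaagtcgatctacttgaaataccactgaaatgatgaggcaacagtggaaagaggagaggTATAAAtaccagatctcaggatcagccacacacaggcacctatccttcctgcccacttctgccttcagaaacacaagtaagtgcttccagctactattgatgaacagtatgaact
Serpinb5: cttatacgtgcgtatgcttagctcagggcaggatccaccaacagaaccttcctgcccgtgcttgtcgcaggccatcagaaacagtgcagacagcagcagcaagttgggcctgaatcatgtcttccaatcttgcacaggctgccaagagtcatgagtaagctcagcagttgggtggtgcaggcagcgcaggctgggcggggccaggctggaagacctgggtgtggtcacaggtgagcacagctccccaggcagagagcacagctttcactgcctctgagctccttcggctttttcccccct
Serpinb2: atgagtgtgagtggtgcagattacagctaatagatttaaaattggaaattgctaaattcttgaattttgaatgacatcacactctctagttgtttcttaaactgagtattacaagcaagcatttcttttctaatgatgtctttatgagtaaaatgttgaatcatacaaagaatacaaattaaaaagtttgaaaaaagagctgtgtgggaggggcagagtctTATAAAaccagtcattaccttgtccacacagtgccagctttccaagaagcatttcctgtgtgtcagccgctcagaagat
Serpinf1: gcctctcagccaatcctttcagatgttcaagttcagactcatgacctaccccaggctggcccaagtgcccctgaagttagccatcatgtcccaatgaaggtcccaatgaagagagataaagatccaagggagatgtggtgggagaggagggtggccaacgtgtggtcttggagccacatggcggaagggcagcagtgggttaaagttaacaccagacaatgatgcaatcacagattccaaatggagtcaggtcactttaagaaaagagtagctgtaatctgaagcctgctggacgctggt

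The TATAAA letters began 65 bases before the annotated start in Serpinb3a and 29 bases before it in Serpinb2, and were not in the Serpinb5 or Serpinf1 windows. The promoter table held 24 of the 28 listed serpin genes, in 26 windows. On either strand, TATAAA occurred in 4 of these 26 windows and in 13.6% of all 32851 windows. The AP-1 letters TGACTCA occurred in 4 windows, those of Serpina1a, Serpina1b, Serpina1c and Serpina1d, and in 5.20% of all windows. The letters CAATAAA and CTCGTAAA, both bound by HOX proteins of paralogue group 13 in binding assays, were in none of the 26 serpin windows and in 4.60% and 0.131% of all windows. These matches describe letters and show no binding.

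Across the family, no serpin probe set was past the threshold between GC13 and FVB skin. On log2(intensity + 2) values centred on each array's median, limma with Benjamini-Hochberg adjustment over all 9316 probe sets that passed the filter called 47 of them at an adjusted p under 0.05, which is 0.505% (0.0859% higher and 0.419% lower in GC13). Of the 32 serpin probe sets 26 passed that filter, a mean intensity above 6.83 over the 6 arrays, and 0 of the 26 were called, where 3 had an unadjusted limma p under 0.05 against 15.5% of all probe sets tested. The smallest adjusted p was that of Serpinb3a, at 0.074. With so few arrays the 95% interval of a difference was wide, yet for 16 of the 26 it lay within 1 of 0 on the log2 scale, so within a 2-fold change either way, as it did for 55.8% of all probe sets tested. The median difference of the 26 was 0.17, beside 0.08 over all probe sets tested, with 20 above 0, where 57.3% of all lay above 0. Without centring and with quantile normalization 15 of the 26 lay above 0, so the lean to the positive side depended on the scaling.

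On the deposited intensities 4 of the 26 had groups that did not overlap, against 23.0% of all probe sets tested. The probe set of Serpina1a to Serpina1d and Serpinb3a lay above FVB, as did 10.7% of all, and Serpinb2 and one Serpinf1 probe set lay below, as did 12.3% of all. After centring 4 did not overlap, against 24.5% of all, and all 4 lay above: Serpinb3a, the Serpina1a to Serpina1d probe set, Serpina1b and Serpini1, where 14.5% of all lay above and 9.94% below.

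**Figure D1:**
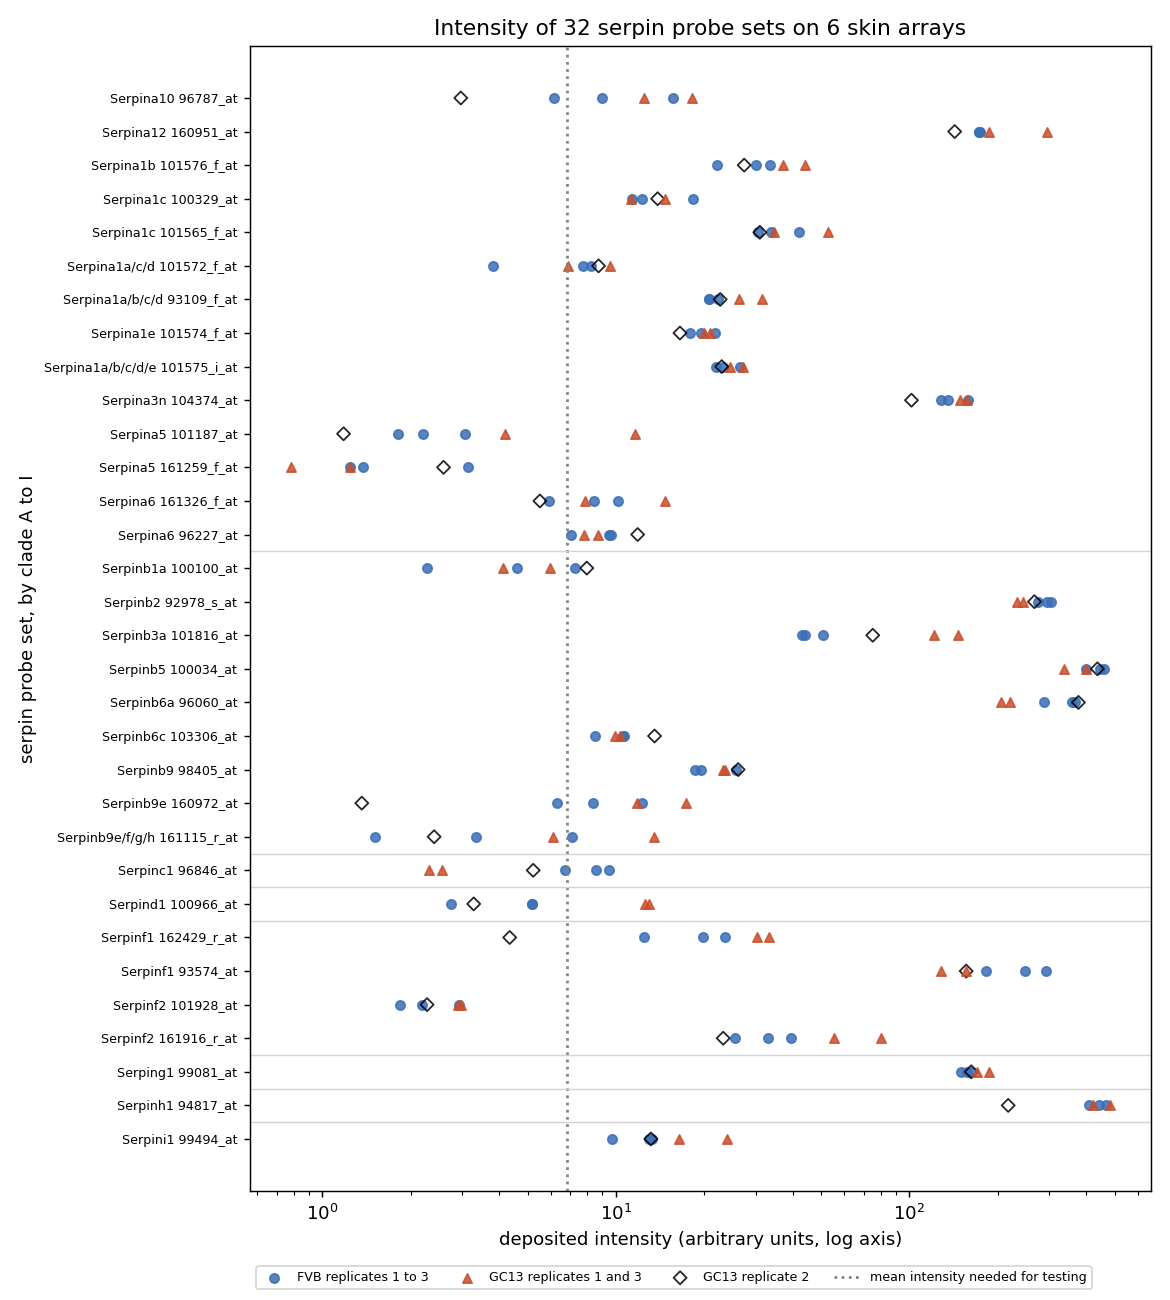
Deposited intensity (log axis, arbitrary units) of each of the 32 serpin probe sets on each array, by clade; circles are the 3 FVB arrays, triangles GC13 replicates 1 and 3, the open diamond GC13 replicate 2, and the dotted line is the mean intensity of 6.83 needed for testing. Serpinb3a is the row of clade B where all GC13 points lie clearly right of the FVB points, and the diamond often parts from the triangles.

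**Figure D2:**
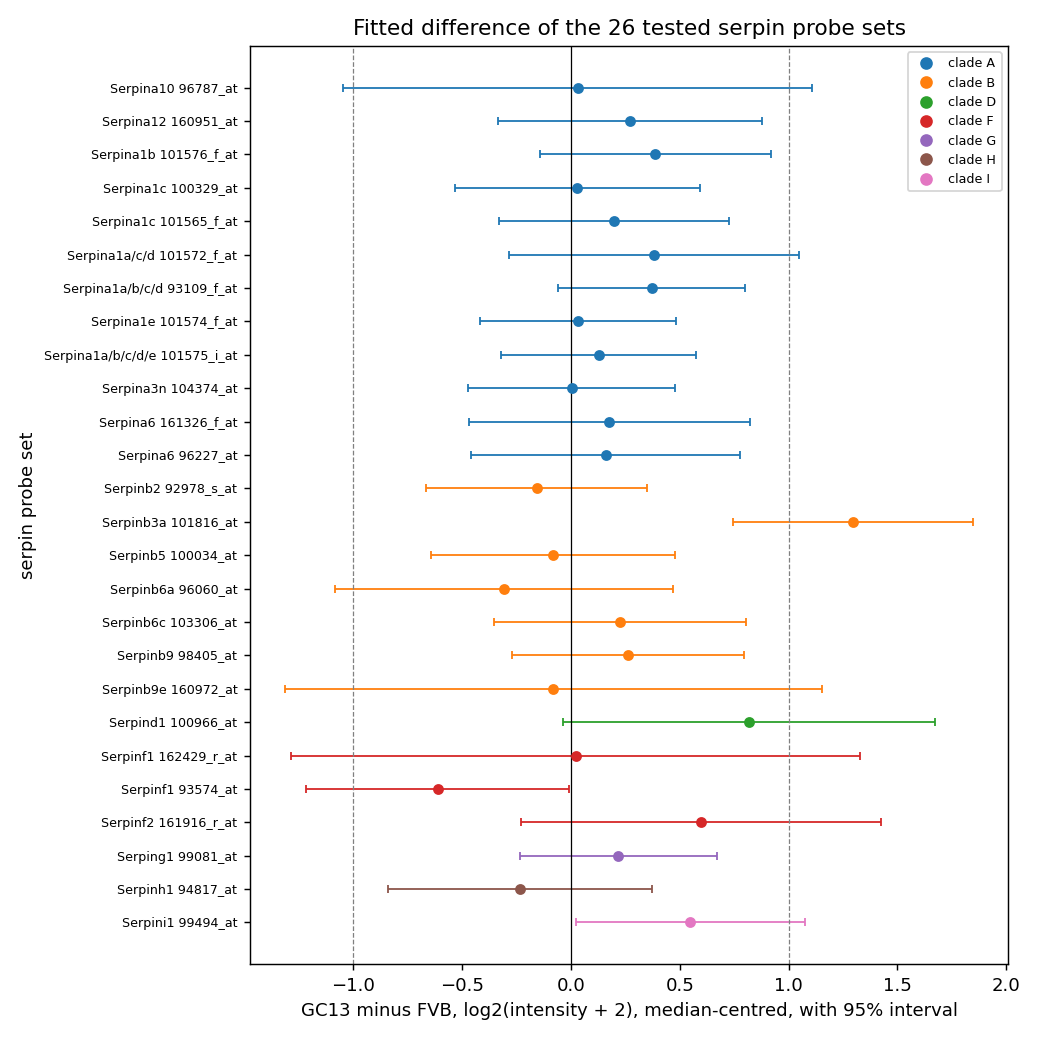
Fitted GC13 minus FVB difference (log2) of the 26 tested serpin probe sets, with 95% intervals from limma and dashed lines at 1 and -1. Serpinb3a has the interval farthest from 0, and 16 of the 26 intervals lie between the dashed lines.

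Serpinb3a is a mouse counterpart of the human squamous cell carcinoma antigens, inhibitors made in squamous epithelium that act on serine and cysteine proteases. Its probe set had intensities of 44.1, 50.8 and 43.2 across FVB arrays, against 146, 75.0 and 121 across GC13 arrays. The lowest GC13 value lay above the highest FVB value, and GC13 replicate 2 was the lowest of the 3 GC13 arrays. Mean intensity was 46.1 ± 4.15 (SD, n = 3) for FVB against 114 ± 36.0 (SD, n = 3) for GC13, a ratio of 2.48. The fitted log2 difference was 1.30 (SE 0.24, 95% interval 0.74 to 1.85), and the limma adjusted p of 0.074 was not past the threshold. Differences larger than 1 in size were seen in 4.98% of all probe sets tested, and Serpinb3a was the 1 serpin among them. Its sign was positive under each of the 16 alternatives tried, with values from 0.91 to 1.60.

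Without GC13 replicate 2, Serpinb3a passed at a log2 difference of 1.47 (limma adjusted p = 0.00959), in a fit where 14.9% of all probe sets tested passed. Line, Gapdh ratio and Y-linked signal coincide in that fit, so the call cannot be assigned to the line alone. Serpinb3a lies beside the similar genes Serpinb3d, Serpinb3b and Serpinb3c, none of which had a probe set here, and a contribution of their transcripts to its signal was not tested. The 9 measured keratinocyte markers summed to between 9291 and 9550 in FVB and between 10165 and 14253 in GC13. The 7 tested had a median difference of 0.22, with medians of 0.38, 0.42 and -0.13 on GC13 replicates 1, 2 and 3. Serpinb3a stood at 1.66, 0.95 and 1.28 on these arrays, and the medians of all probe sets tested were 0.07, 0.21 and -0.02. The part of keratinocyte markers in the Serpinb3a difference was not tested.

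**Figure D3:**
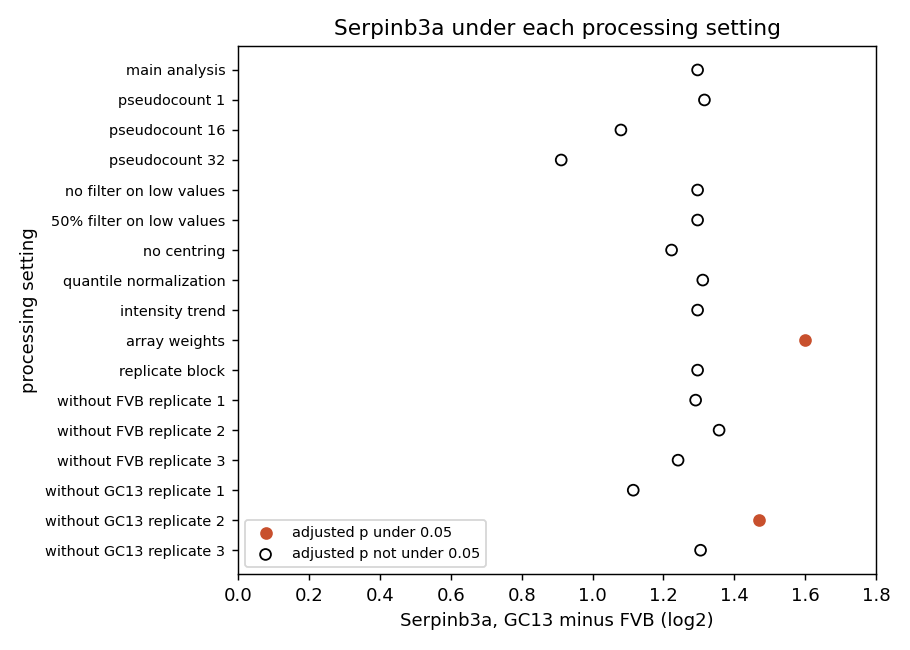
GC13 minus FVB difference of Serpinb3a (log2, horizontal axis from 0) in the main analysis and under 16 alternative settings; filled points have a limma adjusted p under 0.05. The values run from 0.91 to 1.60, and the 2 filled points are the fit with array weights and the fit without GC13 replicate 2.

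The 2 other clade B genes of the chromosome 1 cluster with a probe set lay near 0. Serpinb5 encodes maspin, an epithelial serpin without protease inhibitory activity that is known as a tumour suppressor. It read 460.5, 445 and 398 across FVB arrays, against 400.1, 437 and 336 across GC13 arrays, so the groups overlapped. Its log2 difference was -0.08 (95% interval -0.64 to 0.48), an interval that lies below that of Serpinb3a. Serpinb2, the plasminogen activator inhibitor of type 2, read 295, 304 and 274 across FVB arrays, against 243, 267 and 233 across GC13 arrays. Every GC13 intensity of Serpinb2 lay below every FVB intensity, but the groups overlapped once the arrays were centred, and its log2 difference was -0.16 (95% interval -0.66 to 0.35, limma adjusted p = 0.764). In the RefSeq order, 2 genes lie between Serpinb5 and Serpinb3a and 5 between Serpinb3a and Serpinb2, and the 9 genes of the cluster that were not listed on the array were not analysed here.

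Among the clade B genes of chromosome 13, Serpinb6a and Serpinb9e differed between GC13 replicate 2 and the other GC13 arrays, in opposite directions. Serpinb6a, an inhibitor of trypsin-like proteases and cathepsin G found in many cell types, read 358, 366 and 287 across FVB arrays, against 220.1, 377 and 204 across GC13 arrays. GC13 replicates 1 and 3 lay below all FVB arrays, while GC13 replicate 2 lay above them. Its log2 difference was -0.31 (SE 0.34, limma adjusted p = 0.704), and without GC13 replicate 2 it was -0.68 (limma adjusted p = 0.0558). Serpinb9, which inhibits the cytotoxic protease granzyme B, read 19.5, 25.7 and 18.6 across FVB arrays, against 23.2, 26.1 and 23.6 across GC13 arrays, which overlapped. Serpinb6c was dim, between 8.50 and 10.6 in FVB and between 9.92 and 13.5 in GC13. Serpinb9e read 6.32, 12.3 and 8.35 across FVB arrays, against 11.8, 1.36 and 17.3 across GC13 arrays, so that GC13 replicate 2 was the lowest of all arrays and replicate 3 the highest. The log2 difference of Serpinb9e was -0.08, and 0.58 without GC13 replicate 2. Serpinb1a, an inhibitor of neutrophil elastase, and the probe set that lists Serpinb9e, Serpinb9f, Serpinb9g and Serpinb9h were below the filter, with mean intensities of 4.72 and 3.97 in FVB and 6.01 and 7.32 in GC13. In each of the 7 tested clade B probe sets the SD of the centred log2 values was larger over the GC13 arrays than over the FVB arrays, as it was for 84.9% of all probe sets tested.

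**Figure D4:**
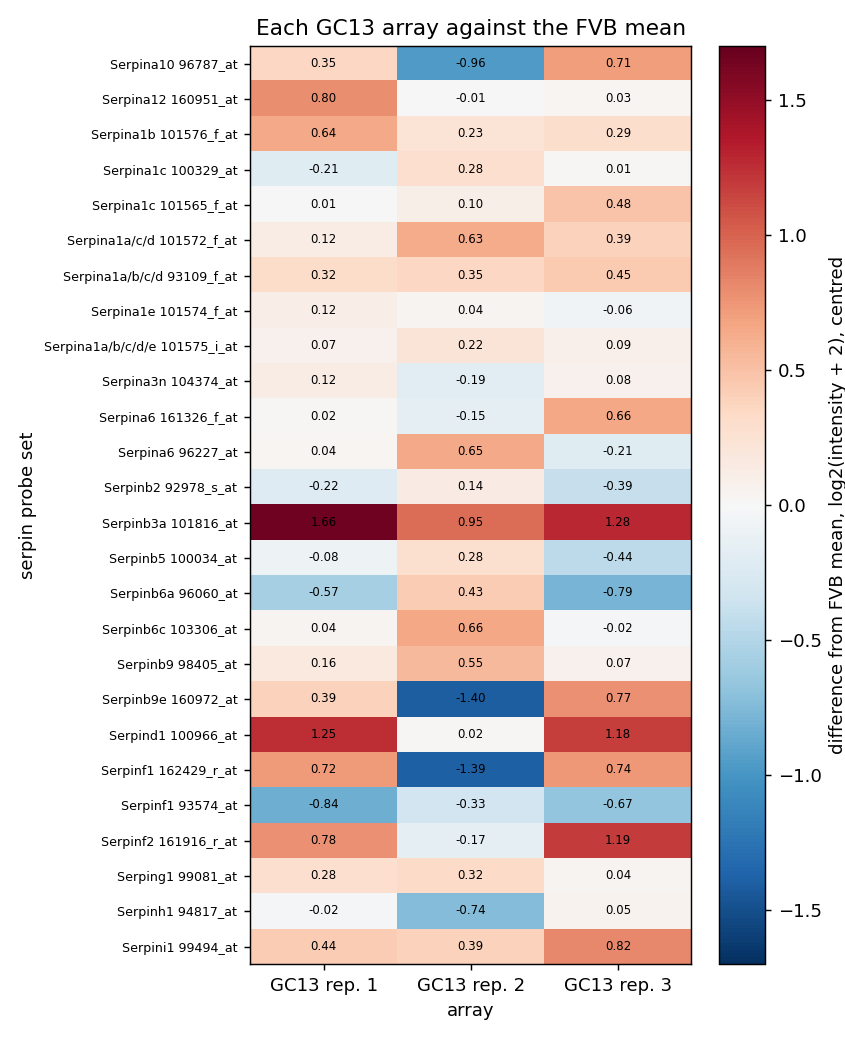
Difference of each GC13 array from the FVB mean (centred log2 values, printed in each cell, red higher and blue lower) for the 26 tested serpin probe sets. Serpinb3a is red on all 3 arrays, while Serpinb6a, Serpinb9e, Serpinh1 and the dimmer Serpinf1 probe set differ between GC13 replicate 2 and the other 2.

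The secreted serpins of clade A gave mostly low signals and no difference past the threshold. Of 14 probe sets 12 passed the filter and 0 were called. The probe set of Serpina1a, Serpina1c and Serpina1d passed it through its GC13 values, with a mean of 6.58 in FVB and 8.37 in GC13. All 12 differences were above 0 on the centred scale, with a median of 0.17, but 8 were without centring and 7 with quantile normalization, so the shared direction was not stable. The alpha-1-antitrypsins Serpina1a to Serpina1e, inhibitors of neutrophil elastase that are made mainly by the liver, were read by 7 probe sets with mean intensities between 7.48 and 37.4. Their sequences are near-identical, and the probe sets that list several of them cannot be assigned to one gene. Probe sets that list a single one may also read the others, which was not tested. The probe set that lists Serpina1a, Serpina1b, Serpina1c and Serpina1d without Serpina1e read 20.8, 20.8 and 22.3 across FVB arrays, against 26.4, 22.7 and 31.5 across GC13 arrays. The 2 groups did not overlap, with a log2 difference of 0.37 (SE 0.19, limma adjusted p = 0.386). The probe set that lists only Serpina1e had 19.7 ± 1.94 (SD, n = 3) for FVB against 19.2 ± 2.35 (SD, n = 3) for GC13, and its 95% interval of -0.42 to 0.48 lay within a 2-fold change. Of the 14 measured hepatocyte markers 9 were below the filter. Apoa1 was between 2.21 and 5.10 and albumin (Alb) between 9.68 and 20.8 over the 6 arrays, while haptoglobin (Hp), which other tissues also make, was between 221 and 407.

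Serpina12, which encodes vaspin, an adipose and skin serpin that inhibits kallikrein proteases of the epidermis, read 173, 173 and 172 across FVB arrays, against 295, 143 and 186 across GC13 arrays. The 3 FVB arrays were nearly equal and the GC13 arrays lay on both sides of them, so the groups overlapped. The log2 difference was 0.27 (SE 0.26, limma adjusted p = 0.658), with 0.80 on GC13 replicate 1, -0.01 on replicate 2 and 0.03 on replicate 3. Serpina3n, an antichymotrypsin-like acute phase inhibitor of leukocyte proteases, read 136, 128 and 158 across FVB arrays, against 149, 102 and 157 across GC13 arrays. Its difference of 0.0037 (95% interval -0.47 to 0.48) was the closest to 0 of the 26. Among the dim members, Serpina6, the corticosteroid carrier of plasma, had differences of 0.18 and 0.16 on its 2 probe sets, and Serpina10, an inhibitor of coagulation factor X in its active form, had 0.03. That value of Serpina10 averaged 0.35, -0.96 and 0.71 on the 3 GC13 arrays, and was 0.53 without GC13 replicate 2 and -0.31 without GC13 replicate 3. Both probe sets of Serpina5, the protein C inhibitor, were below the filter with FVB means of 2.36 and 1.92.

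The coagulation serpins of clades C and D were near the lower end of the measured range. Serpinc1, antithrombin, read 8.57, 9.49 and 6.72 across FVB arrays, against 2.31, 5.23 and 2.56 across GC13 arrays. All GC13 values lay below all FVB values, but its mean was under the filter, and in the fit without a filter its log2 difference was -0.89 (limma adjusted p = 0.259). Serpind1, heparin cofactor II, read 5.16, 2.74 and 5.18 across FVB arrays, against 12.6, 3.28 and 12.95 across GC13 arrays. GC13 replicates 1 and 3 were above all FVB arrays and replicate 2 lay among them. The mean of Serpind1 over the 6 arrays was 6.98, just above the filter, which it passed through its GC13 values. Its log2 difference, 0.82 with all arrays and 1.22 without GC13 replicate 2, is therefore a description and no support for a change.

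In clade F, the 2 probe sets of Serpinf1 did not move together. Serpinf1 encodes pigment epithelium-derived factor, a secreted serpin without protease inhibitory activity that restrains vessel growth. The brighter probe set read 292, 182 and 248 across FVB arrays, against 129, 156 and 156 across GC13 arrays. The GC13 intensities lay below all FVB intensities, and the FVB arrays were spread widely among themselves, while after centring the groups overlapped. Its mean was 241 ± 55.2 (SD, n = 3) for FVB against 147 ± 15.9 (SD, n = 3) for GC13, with a log2 difference of -0.61 (SE 0.26, 95% interval -1.22 to -0.01) and a limma adjusted p of 0.319. The other probe set was dimmer, with 19.8, 12.5 and 23.5 across FVB arrays, against 30.3, 4.35 and 33.3 across GC13 arrays, and a difference of 0.02 (95% interval -1.28 to 1.33), which was 0.73 without GC13 replicate 2. On GC13 replicates 1 and 3 the 2 probe sets had opposite signs, at -0.84 and -0.67 for the first and 0.72 and 0.74 for the second.

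Serpinf2, alpha-2-antiplasmin, the main plasma inhibitor of plasmin, also had 2 probe sets, of which 1 was below the filter at mean intensities of 2.31 and 2.71. The other read 25.4, 32.9 and 39.5 across FVB arrays, against 55.2, 23.2 and 80.1 across GC13 arrays. Replicates 1 and 3 of GC13 were above all FVB arrays and replicate 2 below them. The log2 difference was 0.60 (SE 0.36, limma adjusted p = 0.465) and 0.98 without GC13 replicate 2 (limma adjusted p = 0.0363). Serpinb3a, Serpind1 and Serpinf2 were the 3 of 26 serpin probe sets called without that array, all higher in GC13, although Serpind1 had passed the filter through its GC13 values. In that fit, where line, Gapdh ratio and Y-linked signal coincide, 6.04% of all probe sets tested were called in that direction and 8.84% in the other.

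Serping1, the C1 inhibitor that controls complement and contact activation, read 157, 149 and 163 across FVB arrays, against 187, 162 and 171 across GC13 arrays, a difference of 0.22 (95% interval -0.24 to 0.67). Serpini1, neuroserpin, an inhibitor of tissue plasminogen activator made by neurons, was dim, with 12.98, 9.68 and 13.3 across FVB arrays, against 16.4, 13.2 and 23.9 across GC13 arrays. The intensities overlapped narrowly and the centred values did not. The differences were 0.44, 0.39 and 0.82 on the 3 GC13 arrays. The fitted difference of 0.55 had an unadjusted limma p of 0.0432 and an adjusted p of 0.306. Serpinh1 encodes the collagen chaperone Hsp47, which binds procollagen in the endoplasmic reticulum. It read 442, 466 and 409 across FVB arrays, against 424, 217 and 481 across GC13 arrays. GC13 replicates 1 and 3 lay within or just above the FVB range, at -0.02 and 0.05 from the FVB mean, while GC13 replicate 2 lay at -0.74. Its fitted difference was -0.23 (95% interval -0.84 to 0.37), and 0.02 without GC13 replicate 2.

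The genes that work with Serpinh1 were read from a list of collagen chains, collagen-modifying enzymes and chaperones. None of the 22 tested was called, 16 lay above 0 and 6 below, and the median difference was 0.32. Without GC13 replicate 2 the median was 0.20 and 3 of the 22 were called, where 14.9% of all probe sets tested were. The dermal fibroblast markers, which share collagen genes with the list, lay above 0 in 11 of 11 cases with a median of 0.65, and their part was not tested. The fibrillar collagen genes Col1a1 and Col5a1 had differences of 0.54 and 1.10 (limma adjusted p = 0.281 and 0.0751), and the disulfide isomerase gene Pdia4 had -0.68 (limma adjusted p = 0.213). On GC13 replicate 2, where Serpinh1 was lowest, the median of the list lay 0.35 above its FVB level. The median of all probe sets tested lay 0.21 above on that array, so the positive sign of the list median there was shared by the array as a whole.

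Target proteases of the serpins had no member past the threshold in any list with all 6 arrays. Cathepsins, lysosomal proteases some of which are inhibited by clade B serpins, lay mostly lower in GC13, with 11 of 12 tested differences below 0 and a median of -0.48. The count of 11 was the same without centring and with quantile normalization. Without GC13 replicate 2 the median was -0.63 and 6 of the 12 were called, where 14.9% of all probe sets tested were. Hair follicle markers, at a median of -0.63, and melanocyte markers, at -0.55, were lower too, and their part was not tested. In 6 of the 12, all GC13 intensities lay below all FVB intensities, where 12.3% of all probe sets tested did, and after centring 4 did, where 9.94% of all did. Ctsf read 124, 119 and 146 across FVB arrays, against 75.3, 36.4 and 76.9 across GC13 arrays, a difference of -1.02 (limma adjusted p = 0.145). Lgmn, the asparaginyl endopeptidase legumain, read 142, 132 and 117 across FVB arrays, against 79.5, 77.8 and 77.6 across GC13 arrays, a difference of -0.64 (limma adjusted p = 0.217). Ctsb had -0.12 and its groups overlapped.

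Among 8 tested granule proteases of leukocytes and mast cells 7 differences were above 0, with a median of 0.53. Of the 8, 2 were called without GC13 replicate 2, where 14.9% of all probe sets tested were. Gzma, among those above 0, passed the filter through its GC13 values, with a mean of 5.62 in FVB and 9.04 in GC13. The mast cell chymase gene Cma1 read 483, 512 and 504 across FVB arrays, against 1016, 690.2 and 704 across GC13 arrays, a difference of 0.73 (limma adjusted p = 0.198). The mast cell markers, most of which are the same genes, summed to between 978 and 1056 in FVB and between 1269 and 1915 in GC13. The 6 epidermal serine proteases had a median of 0.03 on the centred scale and -0.04 without centring, and -0.12 without GC13 replicate 2, where 0 were called. Prss8, a membrane-anchored channel-activating protease, read 125, 121 and 135 across FVB arrays, against 81.0, 44.0 and 99.0 across GC13 arrays (difference -0.75, limma adjusted p = 0.23).

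The plasminogen system, the target of Serpinb2, Serpinf2 and Serpini1, had a median difference of 0.12 over 11 tested genes with 6 above 0. Without GC13 replicate 2 its median was -0.05 and 3 of the 11 were called, where 14.9% of all probe sets tested were. The urokinase gene Plau was dim at 8.19 ± 2.15 (SD, n = 3) for FVB against 14.1 ± 6.01 (SD, n = 3) for GC13 and overlapped. Vtn, which encodes vitronectin, read 19.4, 20.7 and 17.6 across FVB arrays, against 3.15, 9.99 and 2.28 across GC13 arrays, a difference of -1.65 (limma adjusted p = 0.152). Its GC13 mean of 5.14 was under the filter level, so Vtn was tested through its FVB values. Coagulation genes had a median of 0.18 over 11, which was 0.70 on GC13 replicate 2 against -0.02 and 0.06 on replicates 1 and 3. All probe sets tested had medians of 0.21 on GC13 replicate 2 and 0.07 and -0.02 on replicates 1 and 3. Without GC13 replicate 2 the median was 0.04 and 1 of the 11 was called, against 14.9% of all probe sets tested. The protein S gene Pros1 had a difference of 0.54 with all arrays (limma adjusted p = 0.247).

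Complement C1 and contact proteases, which Serping1 regulates, had a median of 0.11 over 7 tested genes. Of these, 1 was called without GC13 replicate 2, against 14.9% of all probe sets tested. C1qa, a subunit of the complement recognition molecule, read 65.1, 67.1 and 83.6 across FVB arrays, against 31.8, 8.12 and 18.4 across GC13 arrays, a difference of -1.87 (limma adjusted p = 0.082). Among other protease inhibitors 7 of 14 lay above 0, with a median of 0.04. On the deposited intensities 5 lay below FVB and 1 above without overlap, where 12.3% of all probe sets tested lay below and 10.7% above. Without GC13 replicate 2 the median was -0.13 and 3 of the 14 were called, against 14.9% of all. Spint1, a Kunitz-type inhibitor of epithelial membrane proteases, read 321, 285 and 324 across FVB arrays, against 147, 166 and 181 across GC13 arrays, a difference of -0.83 (limma adjusted p = 0.139). The list of stress, TGF-beta and glucocorticoid genes that act on serpin genes had a median of -0.02 over 10, which was 0.06 without GC13 replicate 2, where 0 were called.

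**Figure D5:**
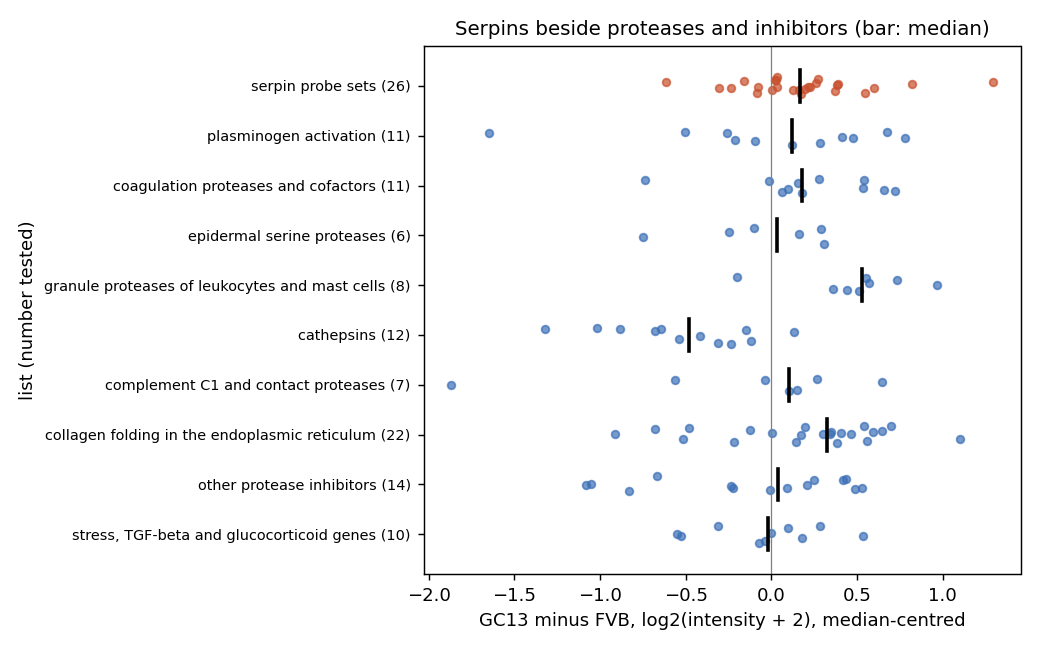
GC13 minus FVB difference (log2) of each tested gene in 9 lists of proteases, inhibitors and cofactors, below the 26 serpin probe sets (top row); each point is a gene or probe set and each bar the median of its row. The list medians run from -0.48 for cathepsins to 0.53 for granule proteases. The collagen list has its median at 0.32 and the serpin probe sets at 0.17, and the other lists lie between -0.02 and 0.18.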

How the data were processed

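Values were the deposited intensities of 6 one-sample arrays, on a linear scale and all above 0. How the authors computed them (software, background, detection) is not given in the sources used here; the trimmed mean, without the highest and lowest 2%, was 100 on each array. The 66 control probe sets served only for the 3' over 5' ratios. The other values were set on the log2(intensity + 2) scale, which understates changes of dim probe sets, and centred on each array's median. A filter dropped the 25% of probe sets that were dimmest on average. GC13 and FVB were compared by limma (version 3.58.1, R version 4.3.3; linear model, moderated two-sided test, no block, Benjamini-Hochberg over 9316 probe sets, threshold 0.05). On simulated data this procedure recovered 0% of changes of 1 on the log2 scale, a 2-fold change, and 76.6% of changes of 2. An absence of calls therefore does not exclude a 2-fold change. Differences are GC13 minus FVB. Probe sets were named by GEO's platform annotation, and RefSeq (GRCm38.p6) matched by Entrez number changed 0 serpin symbols. Genes of other lists stood by the probe set with the highest mean. Intensities of different probe sets are not on a common scale of transcript level.

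Members and lists were chosen with earlier results of these data known. Values on every array were given for members whose deposited intensities did not overlap between groups and for the member with the highest signal in each clade. From each list the text drew on the 2 genes with the smallest p and the 2 with the highest signal. Members shown beyond that, with Apoa1, Alb and Hp, were named after their values were seen. Alternatives changed the pseudocount, filter or scaling, or used an intensity trend, array weights, a replicate block or left out 1 array.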

Additional observations from a re-analysis of the deposited data

How the results depend on the processing

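No serpin probe set passed in limma under 14 of the 16 alternatives. Array weights, which set GC13 replicate 2 to 0.107 and GC13 replicate 1 to 4.11, gave 9 calls among the 26 serpin probe sets tested. In that fit 3840 probe sets, 41.2% of all tested, were called. Leaving out 1 array gave between 0 and 3 serpin calls, the 3 without GC13 replicate 2, and between 0 and 1387 calls in all against 47 with 6 arrays. The 0 was reached without each FVB array, where 765 to 949 probe sets had an unadjusted p under 0.05. The 1387 calls came without GC13 replicate 2, where line, Gapdh ratio and Y-linked signal coincide, so they cannot be assigned to the line alone. Calls in all were 83 and 119 with pseudocounts of 16 and 32.

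The median serpin difference of 0.17 was 0.115 and 0.0805 with pseudocounts of 16 and 32, 0.0037 with the 50% filter, 0.0945 without centring, 0.0482 with quantile normalization, 0.114 with array weights and 0.12 to 0.21 with 1 array left out. Of the 26 probe sets tested, 16 kept their sign under every alternative that gave them a value and 10 did not.

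The labels do not say whether the replicate numbers pair the samples. Deviations of same-numbered samples correlated at -0.07, 0.18 and 0.36, and not every sample correlated best with its own number. Deviations within a group of so few arrays depend on each other, so these correlations cannot decide whether the numbers pair. With the replicate block, 80 probe sets passed in all and 0 of the 26 serpin probe sets, where Serpinb3a had a limma adjusted p of 0.0734. Depth is unknown for these arrays, and signals near the filter have no stated background.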
